A study of Mus musculus with 6 samples.

Results

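The 29 genes described here encode enzymes, regulators and a transfer protein of cholesterol and fatty acid synthesis. They were taken by symbol, and all 29 were found among the 32286 features of the count matrices. By role they are 7 genes of the mevalonate and isoprenoid steps, 10 that carry farnesyl units through squalene to cholesterol, 4 regulators and transfer proteins, and 8 of fatty acid synthesis and desaturation. Their transcripts were compared between cell classes of the brain vasculature, between arterial, capillary and venous endothelium, and between mice with and without an endothelial deletion of Cldn5.

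Cholesterol is built from acetyl-CoA through mevalonate, isoprenoid diphosphates and squalene, and each step is carried by its own enzyme. Most of these genes are driven by the sterol regulatory element binding proteins (encoded by Srebf1 and Srebf2), transcription factors held in the endoplasmic reticulum by the Insig proteins while sterol is plentiful and released when it falls. Plasma lipoproteins hardly cross the blood-brain barrier, so the brain makes its own cholesterol, and brain endothelial cells sit between the plasma pool and the brain pool.

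All mice were C57Bl6 with Cldn5 fl/fl and R26 YFP/YFP alleles, and all were gavaged with tamoxifen (100 µl, 20 mg/ml) on 3 days when about 3 months old. In iECKO mice the Cdh5-creERT2 transgene was present as well, whose recombinase acts in endothelium once tamoxifen is given. The controls lacked it, but shared the floxed alleles and the drug. Microvessels were pulled from digested brain with beads against PECAM1, dissociated into cells and sequenced as 3 control and 3 iECKO droplet libraries of single-cell RNA. Whether each library came from 1 animal is not stated, so each p-value reflects only how these libraries vary, which may be technical.

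The libraries held 15727366 to 49350802 UMIs (unique molecular identifiers, counted transcripts) and shared at most 12 cell barcodes in pairs. Clusters were named from fixed markers, with the 29 genes left out of the clustering, as endothelial-like (12441 control and 9641 iECKO cells), pericyte-like (168 and 164), smooth muscle-like (300 and 362) and microglia-like (375 and 288), shortened below to the cell name. Endothelial cells were divided again into arterial-like (1813 and 1461), capillary-like (6569 and 4073) and venous-like (693 and 602) zones, with cells between them kept apart. Pericytes came through in small numbers, 34 to 75 per library. Barcodes with endothelial and other markers together were dropped, 7.96% of the endothelial ones in iECKO 1 and 0.63% to 1.78% elsewhere. Cldn5 itself stood at 4504, 4364 and 4699 CPM (the gene's share of the UMIs of a set of cells, scaled between libraries) in control endothelium and at 2647, 2301 and 2716 CPM in iECKO endothelium. The floxed part of Cldn5 is not given, and reads outside it would still be counted. The YFP feature had 0 UMIs in the kept cells of every library and could not mark recombined cells.

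Promoter sequence was available for 23 of the 29 genes (RefSeq, GRCm38.p6), and 3 genes whose transcript share was low in venous cells are shown, of which Hmgcs1 holds a sterol regulatory element core and Insig1 and Srebf2 hold NF-Y boxes without that core. The stretch ends at the RefSeq start or before the first annotated exon. Capitals mark the sterol regulatory element core TCACNCCAC and the NF-Y box CCAAT, on either strand (a box on the other strand reads ATTGG). Hmgcs1 (HMG-CoA synthase) is given from chr13:119690101-119690350, plus strand, Insig1 from chr5:28071162-28071362, plus strand, and Srebf2 from chr15:82147019-82147180, plus strand.
Hmgcs1: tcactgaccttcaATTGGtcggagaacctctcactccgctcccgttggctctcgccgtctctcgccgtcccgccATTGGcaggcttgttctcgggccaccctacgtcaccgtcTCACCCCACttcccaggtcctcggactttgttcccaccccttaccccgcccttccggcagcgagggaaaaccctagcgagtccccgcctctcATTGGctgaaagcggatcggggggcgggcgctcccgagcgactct
Insig1: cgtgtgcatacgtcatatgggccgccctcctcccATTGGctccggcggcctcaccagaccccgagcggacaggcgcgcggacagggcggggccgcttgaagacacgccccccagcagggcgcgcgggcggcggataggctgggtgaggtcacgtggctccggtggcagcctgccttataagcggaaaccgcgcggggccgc
Srebf2: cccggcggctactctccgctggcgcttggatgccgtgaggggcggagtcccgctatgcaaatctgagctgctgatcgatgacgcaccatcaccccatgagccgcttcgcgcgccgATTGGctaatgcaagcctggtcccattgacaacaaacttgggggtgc

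In Hmgcs1 the core begins 137 bases before the start. Over the 250 bases before the start, the core was found in 1 of the 23 genes, and in 331 of the 27025 genes in the table. The NF-Y box was found in 18 of the 23 (78.3%) against 37.5% of all genes, and the Sp1 box GGGCGG in 19 of the 23 (82.6%) against 35.4%. The marked boxes share no bases. These matches describe the letters of the windows and are not evidence of binding.

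The plainest pattern lay along the vessel. In control libraries, 14 of the 27 members tested took a lower share of the transcripts in venous than in capillary endothelium and none took a higher one, and the 14 came from every role. Over all 11075 genes tested, 19.5% were lower and 21.4% were higher in the same comparison, against 51.9% and 0% of the members. The median log2 difference was -0.48 over the members and 0.00 over all genes (edgeR's quasi-likelihood test with the library as a block, Benjamini-Hochberg adjusted p under 0.05 over all genes). Elovl6 and Fads2 were too low for the test. The summed level of the 29 genes was 683 ± 70.7 CPM in capillary and 466 ± 25.8 CPM in venous cells (SD, n = 3).

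**Figure D1:**
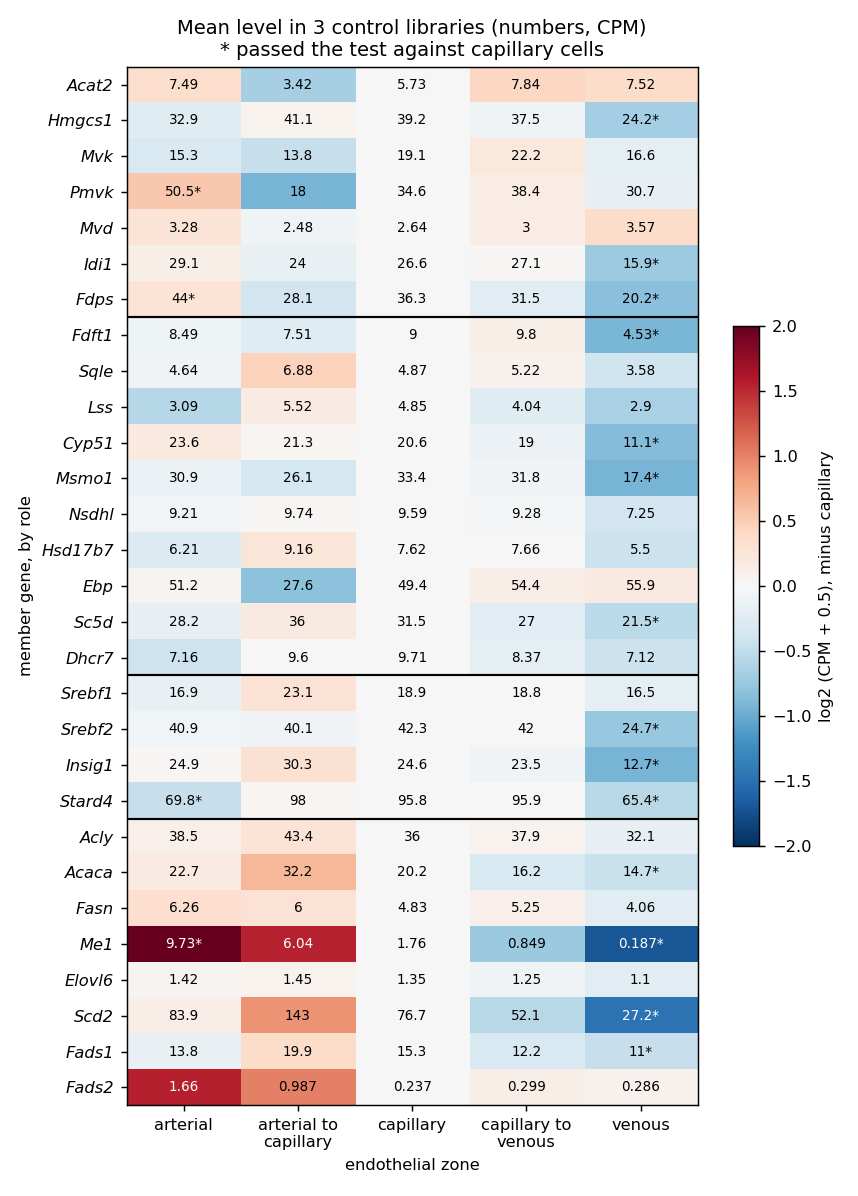
Mean level of each of the 29 genes (rows, grouped by role with black lines) in 5 endothelial zones (columns) of the 3 control libraries. Numbers are CPM, colour is the log2 difference from capillary cells after adding 0.5 CPM, and a star marks a gene that passed the test against capillary cells. The venous column is blue in most rows, and Scd2 falls from 143 CPM between artery and capillary to 27.2 CPM in venous cells.

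Among the 7 mevalonate and isoprenoid genes, 3 were lower in venous cells. Fdps, which makes farnesyl diphosphate, stood at 53.4, 22.6 and 33.0 CPM in the capillary cells of controls 1 to 3, and venous cells of those libraries had 23.6, 16.8 and 20.2 CPM. The venous value lay below the capillary one within each library, while the ranges over libraries touched, because control 1 was high in both zones (log2 difference -0.79 ± 0.13 SE, adjusted p = 1.3e-05). Idi1, the isomerase of isopentenyl diphosphate, differed by -0.68 ± 0.15 and Hmgcs1, which condenses acetoacetyl-CoA, by -0.66 ± 0.12. Acat2, Mvk, Pmvk and Mvd, the thiolase, both kinases and the decarboxylase of the route, did not pass, with differences from -0.19 to 0.46.

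Of the 10 genes from squalene onwards, 4 were lower in venous cells. Fdft1, which joins farnesyl units into squalene, stood at 10.2, 9.25 and 7.55 CPM in capillary cells and at 5.35, 3.18 and 5.05 CPM in venous cells, without overlap (-0.98 ± 0.24, adjusted p = 0.00175). Without control 2 it lost the call (-0.73), as did Fads1 (-0.24) and Acaca (-0.30). Msmo1, a methyl sterol oxidase, differed by -0.89 ± 0.14, Cyp51, the lanosterol demethylase, by -0.80 ± 0.18, and Sc5d, a sterol desaturase, by -0.51 ± 0.13. Sqle, Lss, Nsdhl, Hsd17b7, Dhcr7 and Ebp, which act before and after them, did not pass. Of these, Ebp, a sterol isomerase, stood at 49.4 CPM in capillary and 55.9 CPM in venous cells.

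Of the regulators, Insig1 and Srebf2 moved with the enzymes and Srebf1 did not pass. Insig1, the sterol-dependent anchor, stood at 30.1, 27.4 and 16.3 CPM in capillary cells and at 14.3, 12.1 and 11.8 CPM in venous cells, and all venous values were the lower (-0.92 ± 0.17, adjusted p = 4e-05). Srebf2 stood at 53.9, 37.6 and 35.4 CPM in capillary cells and at 28.5, 24.6 and 21.0 CPM in venous cells, without overlap (-0.76 ± 0.12, adjusted p = 6.51e-06). Srebf1, the factor better known for fatty acid genes, stood at 18.9 and 16.5 CPM (-0.17 ± 0.15, adjusted p = 0.375). Stard4, which carries cholesterol between membranes, was also lower in venous cells (-0.53 ± 0.09).

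The widest range along the vessel belonged to fatty acid genes. Scd2, the stearoyl-CoA desaturase of brain, stood at 71.2, 77.1 and 81.9 CPM in capillary cells and at 16.9, 27.2 and 37.6 CPM in venous cells, far apart in every library (-1.48 ± 0.15, adjusted p = 1.99e-06). Between artery and capillary it reached 151, 128 and 149 CPM, above the capillary values in all 3 libraries. Me1, the malic enzyme that supplies NADPH, gave 116 UMIs in arterial cells of the controls, 43 in their capillary cells and 2 in their venous cells. Its level was 8.0, 11.5 and 9.7 CPM in arterial, 2.0, 1.8 and 1.5 CPM in capillary and 0, 0 and 0.6 CPM in venous cells, so the 3 zones did not overlap. From the counts, the capillary level was 8.08 times the venous one (95% interval 2.11 to 68.9) and the arterial level 45.5 times (12.3 to 380), intervals that cover counting error only. Me1 passed the filter on low counts (2.50 CPM in 3 of 9 libraries) through arterial cells alone, so its calls carry no weight as a count, and the 14 members lower in venous than in capillary cells are 13 without it. Acaca, acetyl-CoA carboxylase, and Fads1, a desaturase of polyunsaturated fatty acids, were lower in venous cells by smaller amounts (-0.46 ± 0.15 and -0.47 ± 0.17). Acly and Fasn, which make acetyl-CoA and palmitate, did not pass.

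These are shares of a cell's transcripts, and venous cells held more transcripts. The median venous cell had 6235 to 11547 UMIs in the control libraries and the median capillary cell 3068 to 4003. Counted per cell, Scd2 gave 30.4 UMIs per 100 capillary cells and 38.1 per 100 venous cells, and Insig1 9.08 and 16.9. Of the 29 genes, 1 gave fewer UMIs per venous than per capillary cell, Me1, at 0.30 and 0.67 per 100 cells. Among cells of 4000 to 8000 UMIs, a range chosen after the data were seen, 20 members could be tested and 3 were lower in venous cells, Scd2 (-1.42), Srebf2 (-1.21) and Hmgcs1 (-1.06). The members' median there was -0.49, Sc5d and Fads1 no longer differed in the same direction (0.03 each), and 6.08% of all genes were called lower and 7.72% higher. How much of the venous difference goes with the number of transcripts per cell was not tested further. The summed endothelial markers were also lower in venous cells (6498 to 7651 CPM) than in capillary cells (8713 CPM or more). Gm42418, a transcript that overlaps ribosomal RNA sequence, took 10.3%, 23.2% and 3.61% of the counts in control capillary cells and 3.87%, 11.4% and 1.80% in venous cells. The part of either in the result was not tested.

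**Figure D2:**
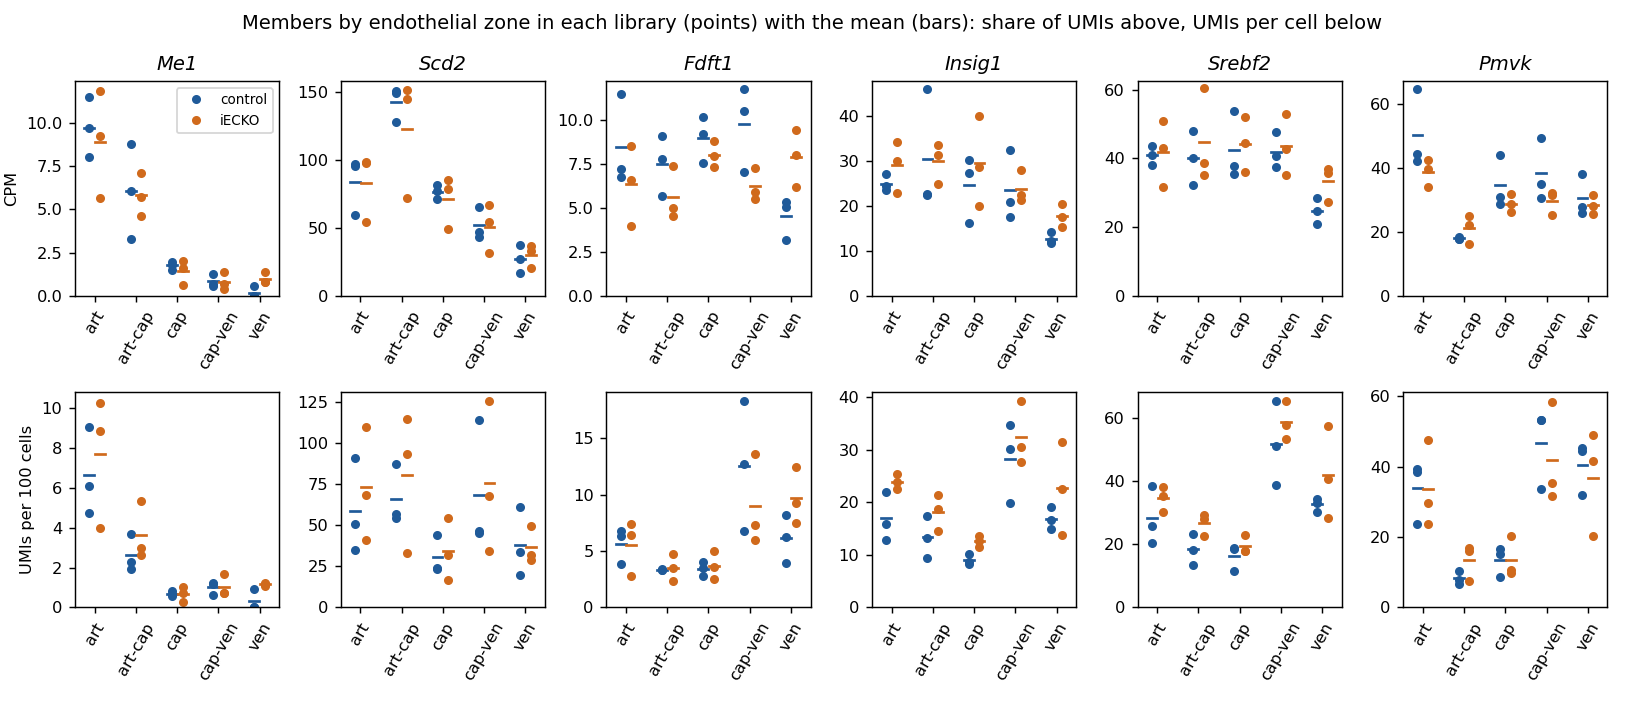
Me1, Scd2, Fdft1, Insig1, Srebf2 and Pmvk in 5 endothelial zones from arterial (art) to venous (ven), with 1 point per library, control in blue and iECKO in orange, and bars at the group means. The upper row gives CPM and the lower row UMIs per 100 cells, and the low venous share of Insig1 and Srebf2 above is not seen per cell below.

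Arterial and capillary cells differed in few members. Of the 27 tested, 3 were higher and 1 was lower in arterial cells, 11.1% and 3.70%, against 16.6% and 15.4% of all genes, and the median was -0.04. One of the 3 was Me1 (2.44 ± 0.28), which passed the filter through arterial cells alone. Pmvk, phosphomevalonate kinase, stood at 64.9, 44.5 and 42.2 CPM in arterial and 44.3, 28.6 and 31.0 CPM in capillary cells, higher within each library with ranges that touched (0.53 ± 0.09, adjusted p = 3.55e-05). Smooth muscle cells were also rich in Pmvk, and the summed smooth muscle markers in arterial cells were 0.0579% to 0.146% of their level in smooth muscle. Stard4 stood at 69.2, 70.7 and 69.5 CPM in arterial and at 92.4, 104 and 91.0 CPM in capillary cells, without overlap (-0.47 ± 0.09, adjusted p = 0.000143). Fdps passed narrowly (0.28 ± 0.10, adjusted p = 0.043) and no longer passed when any control library was left out (0.34, 0.28 and 0.25).

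Against venous cells, 12 of the 27 members were higher in arterial cells and none lower, 44.4% and 0%, where 17.3% and 18.0% of all genes were. The 12, or 11 without Me1, were Me1, Scd2, Fdps, Cyp51, Insig1, Fdft1, Idi1, Msmo1, Srebf2, Pmvk, Acaca and Hmgcs1. Scd2 stood at 59.3, 95.5 and 96.8 CPM in arterial cells, all above its venous values (1.58 ± 0.15), and Fdps at 61.7, 28.0 and 42.4 CPM, also all above (1.06 ± 0.14). Hmgcs1 (0.40) lost the call without control 1 or 2 (0.38 and 0.40), Fdft1 (0.87) without either (0.76 and 0.75), and Acaca (0.62) without control 2 (0.50). This contrast and the capillary one share the venous cells and are not independent.

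The zones of the iECKO libraries gave a count of the same kind, in separate libraries. In them 10 of 28 members were lower and 2 higher in venous than in capillary cells, where 15.1% and 16.9% of all genes were. Scd2 (-1.25), Idi1 (-1.05), Cyp51 (-1.03), Fdps (-0.92), Insig1 (-0.71), Stard4 (-0.66), Hmgcs1 (-0.56), Acaca (-0.52) and Srebf2 (-0.42) were lower in both genotypes, and Hsd17b7 (-0.67) in the iECKO libraries. The 2 that were higher were Fasn (1.06) and Ebp (0.37). Msmo1, Sc5d, Me1, Fdft1 and Fads1 did not pass there.

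The highest or lowest mean of a member could also lie between zones. Of the 29 genes, 14 had their highest control mean in the cells between artery and capillary, 7 in arterial, 3 in capillary, 3 between capillary and venous, and 2 in venous cells. The lowest mean was venous in 23. Neighbouring zones were close in many of these orders. Srebf2, for example, ranged from 40.1 to 42.3 CPM over the 4 zones before the venous one, less than its spread over libraries. In 5 genes, Acat2, Mvk, Pmvk, Mvd and Ebp, the lowest control mean was that of the cells between artery and capillary. Pmvk stood at 17.7, 18.5 and 18 CPM there, below all its other zones, and Ebp at 28.3, 23.8 and 30.7 CPM. These intermediate zones were given no test of their own. The order of zones was not counted over all genes, so these counts describe the 29 members only.

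Endothelial cells that no zone claimed held 2 groups whose levels are given without a test. Those levels were scaled separately from the levels of the zones, so small differences from a zone are not read. Cells led by Plvap and Esm1, genes of fenestrated and sprouting endothelium, had Insig1 at 74.9, 70.9 and 99.8 CPM in control and 84.5, 52.3 and 88.0 CPM in iECKO libraries, higher than in every named zone of the same libraries. Their Scd2 was low, at 27.1, 30.2 and 32.1 CPM in the controls. Cells led by Apln and Angpt2, genes of sprouting tip cells, numbered 69, 46 and 49 in control and 1158, 262 and 197 in iECKO libraries. In these iECKO cells Srebf2 stood at 76.0, 71.4 and 60.7 CPM and Hmgcs1 at 51.3, 62.9 and 56.1 CPM, above the same libraries' capillary values of 52.0, 44.5 and 36.0 CPM and 43.3, 34.4 and 35.3 CPM. In the controls' Apln-led cells Srebf2 stood at 49.8, 37.2 and 63.8 CPM, on 16, 10 and 27 UMIs, and was clearly above the capillary cells only in control 3. Hmgcs1 there was 46.7, 37.2 and 35.5 CPM, on 15, 10 and 15 UMIs, against 46.1, 37.1 and 34.3 CPM in capillary cells.

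Other genes of lipid handling did not all follow. Over all genes tested, 21.4% were higher and 19.5% lower in venous than in capillary cells. Which zones carried each gene of these other lists through the low-count filter was not checked, so their counts are not read against those shares. Of 8 genes that process or hold the sterol regulatory factors, such as Scap and Insig2, none passed between venous and capillary cells, with a median of 0.05. Of 7 further sterol genes tested, 1 was higher and 2 were lower. Lbr, a sterol reductase of the nuclear envelope, was the higher one (0.28 ± 0.07). Of 8 genes of oxysterol sensing and efflux, 6 were higher and 1 was lower in venous cells. Nr1h3, a sterol-sensing nuclear receptor, stood at 1.84, 1.67 and 1.74 CPM in capillary and 13.4, 8.09 and 9.54 CPM in venous cells (2.51 ± 0.28). Its capillary values lay below the low-count filter of 2.50 CPM, so its call carries no weight as a count. The efflux pump gene Abca1 differed by 0.42 ± 0.09 and its relative Abcg1 by -0.97 ± 0.17.

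Among 13 further fatty acid genes tested, 2 were higher and 1 was lower in venous than in capillary cells, where 21.4% and 19.5% of all genes were. Acsl3 and Acsl4, which both load fatty acids onto CoA, went opposite ways. Acsl3 stood at 71.6, 82.6 and 81.0 CPM in capillary and 15.6, 18.2 and 12.3 CPM in venous cells (-2.36 ± 0.12). Acsl4 stood at 18.3, 22.9 and 19.1 CPM and 75.3, 106 and 108 CPM (2.27 ± 0.10). Scd1, the relative of Scd2, was higher in arterial cells, at 10.2, 9.87 and 11.5 CPM against 1.23, 1.54 and 0.93 CPM in capillary cells (3.08 ± 0.29). Its capillary values lay below the low-count filter of 2.50 CPM. Which zones carried it through was not checked, so its call carries no weight as a count. Of 7 esterification and storage genes 2 were higher in venous cells, and of 8 oxidation genes 1 was higher and 1 lower.

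Between cell classes the members differed gene by gene. In the control libraries 19 of the 29 passed the filter on low counts for the comparison of all classes. Against endothelium, pericytes had 3 higher and 1 lower (15.8% and 5.26%, with 14.7% and 20.2% of all 8712 genes), smooth muscle had 5 higher and 3 lower (26.3% and 15.8%, with 26.7% and 29.1%), and microglia had 2 higher and 10 lower (10.5% and 52.6%, with 27.0% and 32.5%). The filter asked for 18.7 CPM in 3 of the 12 libraries. Of the 19 members, 6 needed the libraries of particular classes to pass it. Fads2 and Sqle needed pericytes, Fads1 microglia, Stard4 endothelium, and Acaca and Mvk both endothelium and pericytes. Calls of members between classes are given as values, and the counts are not read against the shares of all genes. The median over all genes was -0.15, -0.07 and -0.13, so the scaling between classes moves each difference by about that much. For pericytes DESeq2 called 17.9% of all genes higher and 15.7% lower, so the share of its calls that were higher was 53.2% in place of 42.1%. Its members' count was also 3 higher and 1 lower.

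Stard4 set endothelium apart from the other classes. It stood at 77.4, 91.8 and 81.8 CPM in control endothelium, at 0, 6.0 and 0 CPM in pericytes, at 3.7, 0 and 3.3 CPM in microglia and at 6.4, 23.0 and 21.3 CPM in smooth muscle. In raw counts the endothelial level was 33.8 times that of pericytes, where 1 UMI was found (95% interval 6.07 to 1337), and 30.8 times that of microglia, with 4 UMIs (12 to 113). The log2 difference for smooth muscle was -2.35 ± 0.25. Stard4 passed the filter on low counts only with the endothelial libraries, so its calls carry no weight as a count. The summed endothelial markers stood at 6.04% to 10.5% of their endothelial level in pericytes, 1.38% to 3.06% in microglia and 2.11% to 2.91% in smooth muscle, and Cldn5 at 0.797% to 3.42% in pericytes. The part of free RNA in these levels was not tested. In iECKO pericytes Stard4 was 36.8 CPM in 1 library and 0 in the other two, and in smooth muscle it was 8.30% or more of the endothelial level in every library.

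Pericytes were marked by Fads2, the first desaturase of polyunsaturated fatty acid synthesis. It stood at 75.8, 24.1 and 26.8 CPM in control pericytes and at 0.5, 0.8 and 0.8 CPM in endothelium, and at 50.9, 67.4 and 88.3 CPM against 0.7, 1.0 and 0.8 CPM in the iECKO libraries. The control pericytes gave 16 UMIs, a level 57.5 times the endothelial one (30.6 to 103). Smooth muscle had 12.8, 8.6 and 8.8 CPM (3.84 ± 0.64). Fads2 passed the filter through pericytes, so its calls carry no weight as a count. Srebf2 was also higher in control pericytes, at 65.0, 78.4 and 85.6 CPM against 44.2, 36.5 and 35.0 CPM (1.05 ± 0.30, adjusted p = 0.00481), without overlap. It lost the call without control 3 (0.97) and in the iECKO libraries (0.09). Sqle, squalene epoxidase, stood at 21.6, 24.1 and 16.1 CPM in pericytes, on 9 UMIs, and at 6.2, 4.5 and 3.9 CPM in endothelium. It too passed the filter through pericytes, and its call (2.11 ± 0.70), lost without control 2 (1.91), carries no weight.

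In smooth muscle 2 of the 5 mevalonate genes tested were higher and none lower, where 26.7% and 29.1% of all genes were. Mvk among the 5 passed the filter on low counts only with endothelium and pericytes, so this count is not read against those shares. Pmvk stood at 103, 83.2 and 75.3 CPM in control smooth muscle and at 42.4, 30.8 and 30.5 CPM in endothelium, without overlap (1.32 ± 0.18, adjusted p = 2.7e-08). Hmgcs1 differed by 0.80 ± 0.19, Cyp51 by 0.82 ± 0.27 and Srebf2 by 0.57 ± 0.20. Cyp51 stood at 24.1, 31.6 and 42.6 CPM against 25.2, 15.9 and 15.9 CPM, with control 1 alike in both classes. Acly, at 17.7, 25.8 and 18.8 CPM, was lower than its 30.7, 41.2 and 36.9 CPM in endothelium (-0.85 ± 0.25), and Scd2, at 33.7, 40.2 and 56.5 CPM against 59.1, 68.2 and 76.6 CPM, was lower too (-0.64 ± 0.18). Without control 3 the 8 calls fell to 5, and Cyp51 (0.45), Srebf2 (0.31) and Acly (-0.66) were the ones lost. DESeq2 did not call Cyp51 (adjusted p = 0.0831) or Srebf2 (adjusted p = 0.0528).

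In microglia 6 of the 10 mevalonate and later sterol genes tested were lower and 1 was higher. Of all genes 32.5% were lower and 27.0% higher in this comparison. Mvk and Sqle among the 10 passed the filter on low counts only with other classes, so the count is not read against those shares. Idi1 stood at 1.8, 2.9 and 8.2 CPM in control microglia and at 32.0, 20.3 and 22.2 CPM in endothelium, without overlap (-2.43 ± 0.44, adjusted p = 8.44e-06). Cyp51 stood at 5.5, 8.8 and 4.9 CPM, also below all endothelial values (-1.64 ± 0.46), and Srebf2 at 14.6, 14.6 and 16.5 CPM (-1.33 ± 0.30). Mvk, Fdps, Pmvk, Acaca, Sc5d and Scd2 were lower by 0.51 to 1.40 on the log2 scale. The exceptions were Fads1, at 40.2, 29.2 and 24.7 CPM against 13.1, 14.8 and 14.7 CPM (1.17 ± 0.31), and Ebp, at 89.7, 78.8 and 80.8 CPM against 53.7, 44.4 and 45.8 CPM (0.80 ± 0.17), both without overlap. Fads1 passed the filter only with the microglia libraries, and Acaca and Mvk only with those of endothelium and pericytes. The calls of these genes carry no weight as a count. Without control 3 the 12 calls fell to 7, with Pmvk (-0.78), Sc5d (-0.83), Acaca (-0.74) and Scd2 (-0.52) among those lost. Sc5d (-0.81) and Fads1 (0.86) lost the call without control 1, and Acaca (-1.02) and Scd2 (-0.41) without control 2. DESeq2 did not call Acaca, Sc5d or Scd2 (adjusted p = 0.0571, 0.176 and 0.111).

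**Figure D3:**
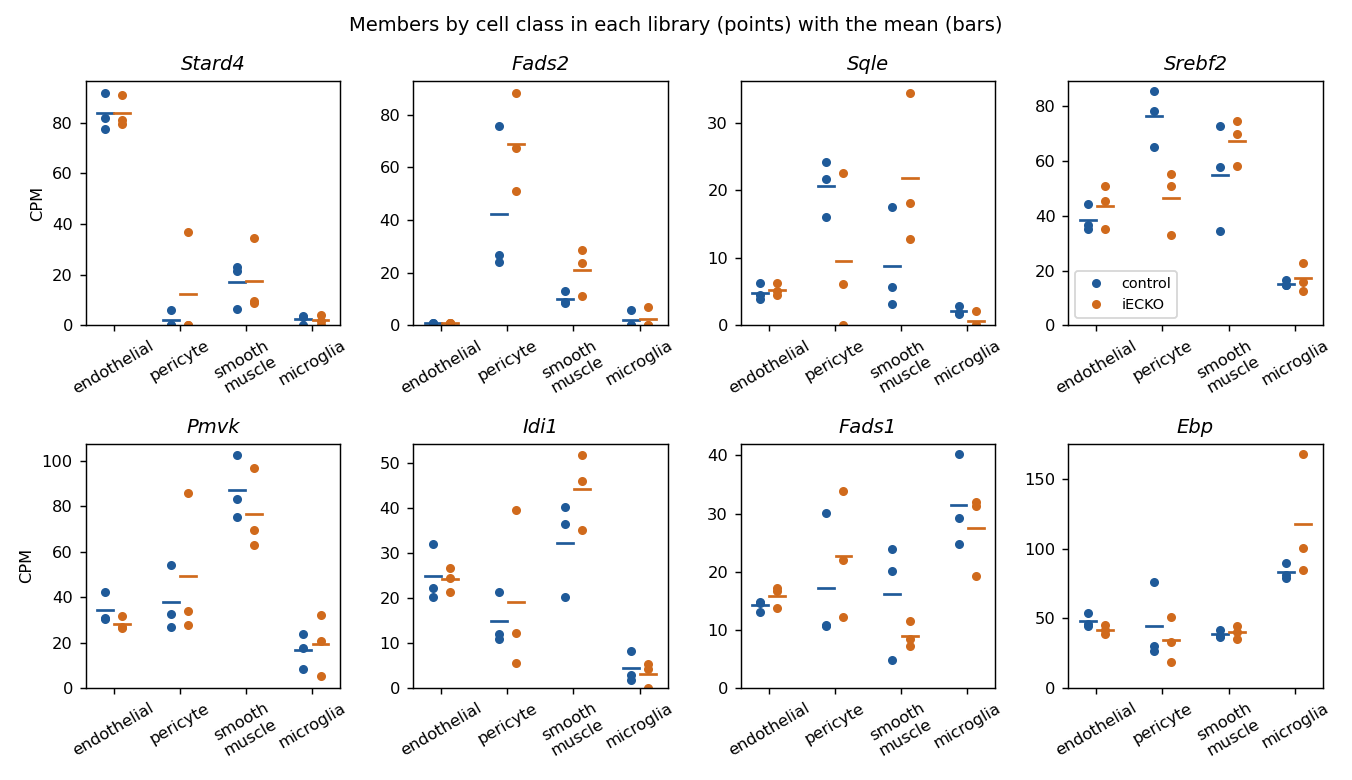
Level in CPM of 8 members in endothelial, pericyte, smooth muscle and microglia cells, with 1 point per library (control in blue, iECKO in orange) and bars at the group means. Stard4 is high in endothelium, Fads2 in pericytes, Pmvk in smooth muscle, and Fads1 and Ebp in microglia.

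Values of other lipid genes are given beside those of the members. Fads3, a desaturase relative, stood at 75.8, 66.3 and 134 CPM in pericytes and at 0.33, 0.81 and 0.07 CPM in endothelium (7.85 ± 0.58). Nr1h3 was higher in pericytes (3.89 ± 0.49), at 86.6, 36.2 and 58.8 CPM against 3.67, 3.60 and 4.23 CPM. In microglia 5 of 8 genes of oxysterol sensing and efflux were higher and 2 were lower, where 27.0% and 32.5% of all genes were. Which classes carried the 8 genes through the low-count filter was not checked, so this count is not read against those shares. Abca1 was among the higher ones, at 267, 210 and 290 CPM against 58.4, 92.2 and 94.0 CPM (1.71 ± 0.16). Soat1, which esterifies cholesterol for storage, was higher in microglia as well (2.66 ± 0.24), at 60.4, 58.4 and 69.3 CPM against 8.83, 10.9 and 10.5 CPM. The endothelial values of Fads3, Nr1h3 and Soat1 lay below the low-count filter of 18.7 CPM. Which classes carried these genes through was not checked, so their calls carry no weight as a count.

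No member passed the test between iECKO and control endothelium. Cldn5, the deleted gene, did not pass it either (-0.81 ± 0.20, adjusted p = 0.28), so a missing call does not show that a gene was unchanged. Of the 29 tested, 0 passed the adjusted threshold and 0 had an unadjusted p under 0.05, where 2 of 13259 genes (0.0151%) passed. With DESeq2 0 members passed as well, with 1.26% of all genes called. The members' median log2 difference was 0.06, against 0.00 over all genes, and single genes ranged from -0.27 (Pmvk) to 0.66 (Elovl6), with standard errors of 0.12 to 0.37. The summed level was 632 ± 39.9 CPM in control and 635 ± 39.1 CPM in iECKO endothelium (SD, n = 3).

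With the replicate number as a block, since same-numbered libraries deviated together, 1.52% of all genes passed, as did Cldn5 (-0.81 ± 0.09, adjusted p = 0.00794). Of the members 0 passed, and 3 had an unadjusted p under 0.05. These 3, named after their values were seen, were Elovl6, which lengthens palmitate (0.69 ± 0.22, adjusted p = 0.154), Acly (0.27 ± 0.09, adjusted p = 0.18) and Srebf1 (0.30 ± 0.10, adjusted p = 0.183). The share of all genes with an unadjusted p under 0.05 is not given here, so the count of 3 is not read as a result. Elovl6 stood at 1.11, 2.40 and 1.53 CPM in the controls, and the iECKO libraries had 1.69, 3.53 and 2.78 CPM. Srebf1 stood at 17.0, 20.5 and 17.1 CPM and at 23.6, 24.6 and 18.5 CPM. In each gene the iECKO library was above the control of the same number, and the groups overlapped in Elovl6 and Srebf1. For Acly the 3 pairs differed by 0.43, 0.087 and 0.22 (log2 after adding 0.5 CPM). Leaving out the Apln-led cells, which were more frequent in the iECKO libraries, the blocked Srebf1 difference was 0.18 and that of Elovl6 0.59.

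**Figure D4:**
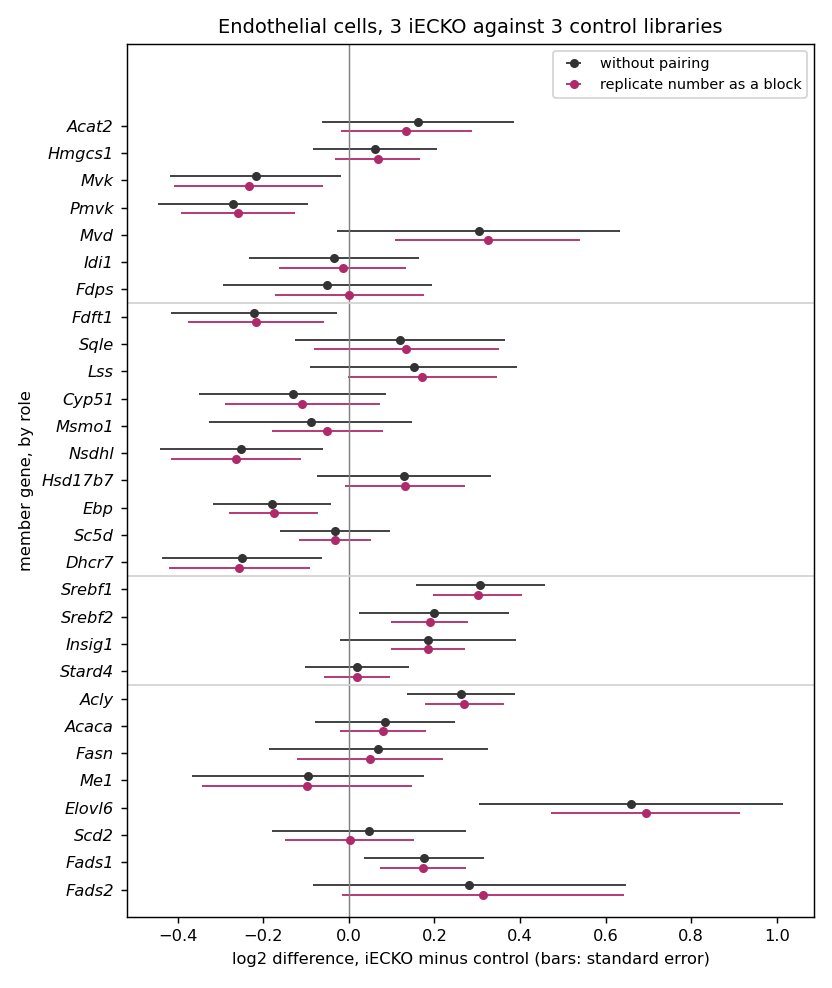
Log2 difference, iECKO minus control, of the 29 members in endothelial cells, with standard errors, from the test without pairing (black) and with the replicate number as a block (magenta). The points lie between -0.27 and 0.69, and none passed the adjusted threshold in either test.

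Nor did a member pass within a zone. Arterial cells had 27 members tested, capillary cells 28 and venous cells 25, and 0 passed with or without the block. Of all genes 0.138%, 0.061% and 0% passed without the block and 2.59%, 3.05% and 0.522% with it. Cldn5 did not pass in these zones without the block (adjusted p = 0.0626, 0.33 and 0.671) and passed in each with it (adjusted p = 0.000221 or less). Unadjusted p was under 0.05 in 0, 0 and 4 members without the block. The 4 in venous cells were Fdft1 (0.80 ± 0.34), Fads1 (0.51 ± 0.23), Insig1 (0.50 ± 0.22) and Srebf2 (0.44 ± 0.20), all higher in iECKO, each with an adjusted p of 0.999. Srebf2 stood at 28.5, 24.6 and 21.0 CPM in control and 37.0, 35.9 and 27.3 CPM in iECKO venous cells, with 1 iECKO value below the highest control. The test of whether the venous difference from capillary cells changed with genotype called 0 of 28 members, with 0.277% of all genes called, and 3 members had an unadjusted p under 0.05. These were Fasn (1.33 ± 0.45, adjusted p = 0.346), Fdft1 (0.92 ± 0.36, adjusted p = 0.457) and Msmo1 (0.48 ± 0.22, adjusted p = 0.576). The shares of all genes with an unadjusted p under 0.05 are not given here, so the counts of 4 and 3 are not read as results. The same test for arterial cells called 0 of 28, with 0.0173% of all genes called.

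Outside the endothelium few members could be tested for genotype. In pericytes 4 members passed the filter on low counts and 0 passed the test, in microglia 7 and 0, and in smooth muscle 17 and 0, where 0.275%, 0.0314% and 0.0144% of all genes passed. With the block 0 members passed as well, against 0.206%, 0.377% and 0.187%. Scd2 had the smallest p in pericytes, at 75.8, 66.3 and 64.2 CPM in control and 124, 123 and 160 CPM in iECKO. The groups did not overlap, and the difference did not pass the adjusted threshold (0.95 ± 0.34, adjusted p = 0.512). The control pericytes held 30 Scd2 UMIs.

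Within the iECKO libraries, capillary cells with 0 Cldn5 UMIs were set against those with at least 2, among cells of at least 2000 UMIs, 240, 87 and 192 cells against 989, 502 and 1206. Of the 23 members tested 0 differed, with 0.641% of all genes called, and the median was 0.05. Scd2 stood at 38.7, 42.7 and 76.3 CPM in the cells without and 48.2, 79.5 and 83.7 CPM in those with Cldn5 UMIs. Both sets of cells were scaled separately, so these levels are not ordered against each other. In iECKO 3, for example, Scd2 gave 82 of 840026 UMIs in the cells without and 712 of 7501691 in those with Cldn5 UMIs. The tested difference of Scd2 did not pass. The controls had 1 to 17 cells without a Cldn5 UMI, too few for the same contrast, so no background for it was measured.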

How the data were processed

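Each library's deposited table gives raw UMI counts by gene and barcode. Cell Ranger 6.1.1 is named in the counts' headers (per the file headers), and the submitters' processing notes name mm10 and Seurat. Barcodes with at least 1000 UMIs, 500 genes and at most 15% mitochondrial counts were kept, the highest scrublet scores removed (0.8% per 1000 barcodes), and cells clustered with scanpy 1.11.5 without the members, the other lipid genes and Cldn5. Counts were summed per library and class or zone (at least 20 cells) and tested with edgeR 4.0.16 (quasi-likelihood, TMM, two-sided, Benjamini-Hochberg threshold 0.05), with DESeq2 1.42.0 as an alternative. Zones and classes were compared in controls with the library as a block. CPM carry TMM factors. Libraries with the same replicate number deviated together (r of 0.430, 0.525 and 0.505 across 13260 genes), so the number was also used as a block. Named genes were members past the threshold, the 3 largest each way per contrast with values per library, and at most 4 per other list. Members and lists were chosen with earlier results of these data known. Gene positions came from GENCODE vM21 (GRCm38).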

Additional observations from a re-analysis of the deposited data

Results flagged for a closer look

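The Srebf2 differences between genotypes had opposite signs in pericytes and in endothelium. In every pair of libraries with the same number, Srebf2 was lower in iECKO pericytes (log2 difference -0.80 in the test without pairing) and higher in iECKO endothelium. The pairs differed by -0.35, -0.50 and -1.36 in pericytes and by 0.20, 0.31 and 0.0096 in endothelium (log2 after adding 0.5 CPM). The third endothelial pair was thus nearly equal. The difference between the classes was not tested, and neither change passed the adjusted threshold.

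Sc5d was higher in iECKO smooth muscle in every pair (0.35) and lower in iECKO endothelium in every pair (-0.03). This difference was not tested either, and neither change passed.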

How the results depend on the processing

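No member was called between genotypes under any setting run, and with the replicate block the count was 0 in each class and zone, so the block changed no call of a member. Over all genes of endothelium the block gave 201 calls and DESeq2 167, against 2 without it. Members called fell from 4 to 1 (arterial against capillary), 14 to 9 (venous against capillary) and 12 to 6 (arterial against venous) without the library block, and to 2, 3 and 3 in cells of 4000 to 8000 UMIs, where fewer genes were tested. Zones set by a marker score per cell gave 7 calls for arterial against capillary cells, 10 lower and 1 higher for venous against capillary cells (median -0.17), and 9 higher and 3 lower for arterial against venous cells (median 0.12). Smooth muscle against endothelium gave 13 calls with all 6 libraries, and microglia 6 with iECKO libraries only; the cause was not tested. Leaving out 1 control library gave 5 to 10 calls in smooth muscle and 7 to 11 in microglia. Sc5d (0.030) and Fads1 (0.028) reversed between venous and capillary cells at 4000 to 8000 UMIs, and Fdft1 reversed between arterial and venous cells in iECKO libraries (-0.15) and by marker score (-0.054). Pericytes had 34 to 75 cells per library.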
